A study of Mus musculus with 10 samples.

Results

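Hepatocellular carcinoma (HCC) was compared with adjacent liver in aged mice that lack Gnmt. The comparison used 4 of the 10 arrays of the series, the 2 whose titles end in "tumor" and the 2 whose titles end in "tumor adj.", all of them single-mouse samples. One pair came from a male Gnmt knockout mouse (Gnmt -/-) aged 18 months and the other from a female Gnmt knockout mouse aged 14 months, both of strain 129/B6. The adjacent livers carry the same knockout as the tumours, so the comparison sets tumour against tumour-bearing knockout liver, and no wild-type liver of these ages was analysed here. Tumour and adjacent liver of 1 sex and age were taken as 1 mouse. That pairing was inferred from the matching titles, since the labels give no mouse numbers. Each pair differs from the other in mouse, sex and age together, and these cannot be told apart. A second lesion, a dysplasia nodule with its adjacent liver from a female Gnmt knockout mouse aged 21 months, served for contrast. The remaining 4 arrays, pools of 3 wild-type or 3 Gnmt knockout mice of 1 sex aged 11 weeks, entered a check of Gnmt and some alternative fits. The question was which genes differ between tumour and surrounding liver.

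Glycine N-methyltransferase, the product of Gnmt, is an abundant hepatocyte enzyme that uses S-adenosylmethionine to methylate glycine, and mice without it are known to develop fatty liver and liver tumours with age. HCC arises from hepatocytes, and such tumours commonly lower the enzymes that mature hepatocytes use for drug, bile acid and amino acid metabolism. They often raise fetal liver proteins, cell division genes and the enzymes that make fat from sugar.

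Values are array signals, deposited as intensity on a linear scale, in arbitrary units. In this account a signal pair such as 2009 against 201.5 for Pfkp in the male pair gives HCC first and adjacent liver second. A difference is HCC minus adjacent liver on the scale log2(signal + 16.8), averaged over both pairs, so that 1 unit is about 2-fold and low signals have their differences shrunk. A gene was called, and is said to have risen or fallen, where its adjusted p in limma was below 0.05 over the 11032 genes tested. An SE is the moderated SE of limma, in which the variance of a gene is drawn toward a trend over all genes. It is therefore not the spread of the 2 pairs, which can be wider or narrower. The number of arrays limits the precision, with 1 array per tissue and mouse. Median signals of the 4 arrays lay between 94.5 and 102.4. The 3' to 5' signal ratio of Actb was 3.00 in the male tumour against 3.62 in its adjacent liver and 3.46 against 2.61 in the female pair, so it did not part the groups. The 3' probe set of 18S ribosomal RNA did part them, at 19.5 and 21.5 in the tumours and 57.3 and 79.1 in the adjacent livers, and its part in the results was not tested. Gnmt was at 11.7 against 12.7 in the male pair and 64.9 against 185 in the female pair, where the 11-week wild-type pools had 59473 and 52139.9 and the knockout pools 245 and 190. All 10 hepatocyte markers measured, such as Alb, Apoa1 and Hnf4a, were above 16.8 on all 4 arrays, with summed signals of 355886 to 497419, which bears out the liver label. Their differences ran from -1.26 (Hpd) to 0.16 (Ttr), with a median of -0.28. Fewer cells of a type and less RNA per cell cannot be told apart in such bulk tissue.

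Both tumours had more mRNA for a prohormone-processing carboxypeptidase, a phosphofructokinase, a secreted protease inhibitor, a tetraspanin, a laminin-binding integrin, a lipid droplet protein and an integrin-binding secreted glycoprotein, and less for an organic anion transporter and a lipocalin. These 9 genes were called, 7 higher and 2 lower, which is 0.0816% of the genes tested (0.0635% higher and 0.0181% lower). Before adjustment 844 genes had a p below 0.05, or 7.65%, of which 478 were higher (4.33%) and 366 lower (3.32%).

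Cpe, carboxypeptidase E, which trims basic residues from prohormones, had signals of 30750 against 1255 in the male pair and 1455 against 71 in the female pair. The male tumour stood far above the other 3 arrays, and the female tumour was close to the male adjacent liver, so the separation lies within each mouse. Cpe rose by 4.33 ± 0.28 (SE, n = 2 pairs), with an adjusted p = 0.00149 in limma and had the largest mean difference of the genes tested. Pfkp, the platelet form of phosphofructokinase in glycolysis, had signals of 2009 against 202 in the male pair and 1139 against 127 in the female pair. Both tumours were above both adjacent livers by a wide margin, and Pfkp rose by 3.11 ± 0.29 (SE, n = 2 pairs), with an adjusted p = 0.0152 in limma. Slpi, a secreted inhibitor of leukocyte proteases, had signals of 15844 against 2729 in the male pair and 3430.3 against 524 in the female pair. It rose by 2.60 ± 0.26 (SE, n = 2 pairs), with an adjusted p = 0.0196 in limma, although the male adjacent liver was nearly as high as the female tumour.

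Tspan8, a tetraspanin of the cell surface known from gut and liver tumours, had signals of 3983 against 749.6 in the male pair and 2021 against 224 in the female pair. Again the tumours lay above both adjacent livers, and Tspan8 rose by 2.73 ± 0.29 (SE, n = 2 pairs), with an adjusted p = 0.0234 in limma. Itga6, the alpha 6 chain of laminin-binding integrins, had signals of 1167 against 208 in the male pair and 2487 against 189.5 in the female pair. Its adjacent livers were nearly level and the female tumour was the higher of the tumours. Itga6 rose by 3.00 ± 0.35 (SE, n = 2 pairs), with an adjusted p = 0.0342 in limma. Mfge8, a secreted glycoprotein that bridges integrins and dying cells, had signals of 8265 against 2133 in the male pair and 8379.9 against 1083 in the female pair, with the tumours level and the adjacent livers apart. Mfge8 rose by 2.44 ± 0.31 (SE, n = 2 pairs), with an adjusted p = 0.0399 in limma.

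Pnpla3, a lipid droplet protein of the patatin-like phospholipase family, had signals of 852 against 124 in the male pair and 2154 against 98.6 in the female pair. The adjacent livers were close to each other and the female tumour was above the male tumour. Pnpla3 rose by 3.43 ± 0.41 (SE, n = 2 pairs), with an adjusted p = 0.0345 in limma. Slco1a4, an organic anion transporter that takes up bile acids and drugs, had signals of 422 against 1766 in the male pair and 1538 against 7869 in the female pair. The female tumour and the male adjacent liver were close to each other, with each tumour far below its own liver. Slco1a4 fell by 2.18 ± 0.27 (SE, n = 2 pairs), with an adjusted p = 0.0399 in limma. Obp2a, a lipocalin that male mouse liver makes in larger amounts, had signals of 1537 against 6535 in the male pair and 27.3 against 325 in the female pair. Here the groups overlapped, since the male tumour was above the female adjacent liver, and the gene fell by 2.52 ± 0.32 (SE, n = 2 pairs), with an adjusted p = 0.0399 in limma. The other 8 called genes did not overlap between the groups. Over all genes tested, 12.8% had both tumours above both adjacent livers and 13% had both below.

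**Figure D1:**
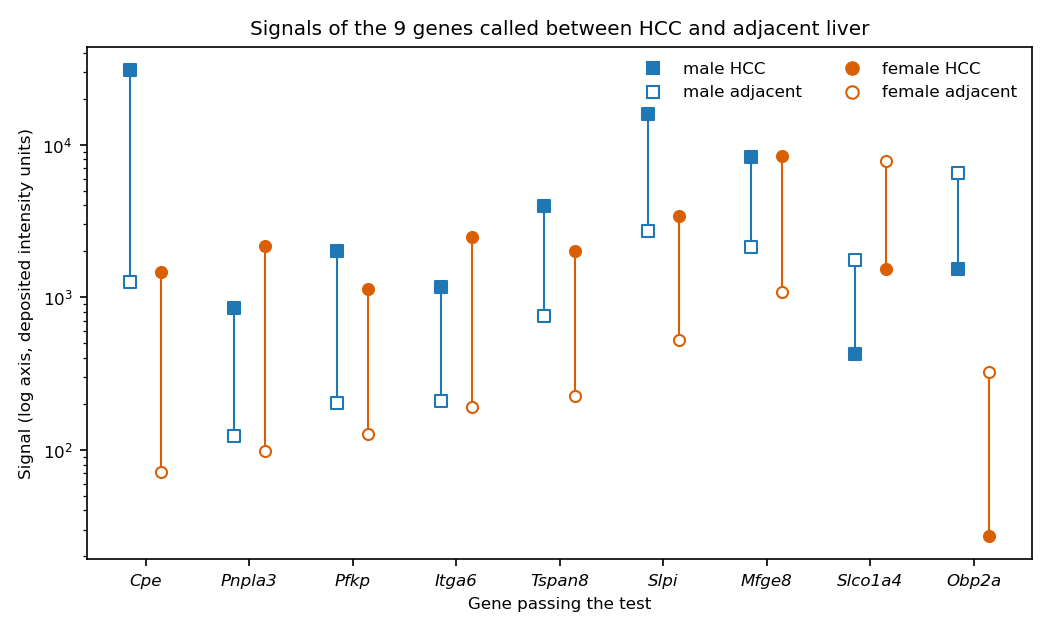
Signals of the 9 called genes on a log axis, with filled marks for HCC, open marks for adjacent liver, squares for the male mouse and circles for the female mouse, and a line joining the arrays of 1 mouse. Every line runs the same way in both mice for a given gene, while levels differ between mice, as for Cpe at 30750 and 1455 in the tumours and Obp2a at 1537 and 27.3.

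Other probe sets of the called genes were read where the array has them. Itga6 had a second probe set with a mean difference of 3.29, Pfkp had others at 1.40 and 0.90, and Tspan8 had 4 others between 0.74 and 1.83. The second probe set of Cpe was near background, with signals of 45.9 to 114.5, and differed by -0.05. The remaining 5 genes are on 1 probe set each. The fit left 1 residual degree of freedom, and none of the 9 passed without the intensity trend in the variance, without the mouse as a block, with all 10 arrays in the fit, or with either pair left out. Dropping the trend or the block, or adding the other arrays, leaves the difference of a gene unchanged by design. Leaving out 1 pair gives the difference of the other pair, and both pairs ran the same way for each of the 9. Their direction could therefore not change in those 5 fits.

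Most differences were not shared by the pairs. Across the 11032 genes the differences of the male and the female pair had a Pearson r of 0.12 and a Spearman rho of 0.10, given as a description, since genes are not independent and both pairs share the scaling of the arrays. At least 2-fold differences were seen in 1009 genes in the male pair (4.54% of genes higher and 4.6% lower) and 1136 in the female pair (6.23% and 4.07%). Of these, 166 ran the same way in both, which is 16.5% of the male and 14.6% of the female set. The 166 were 100 genes at least 2-fold higher in both tumours (0.906% of those tested) and 66 at least 2-fold lower (0.598%). Another 91 genes were at least 2-fold apart in opposite directions (0.825%).

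**Figure D2:**
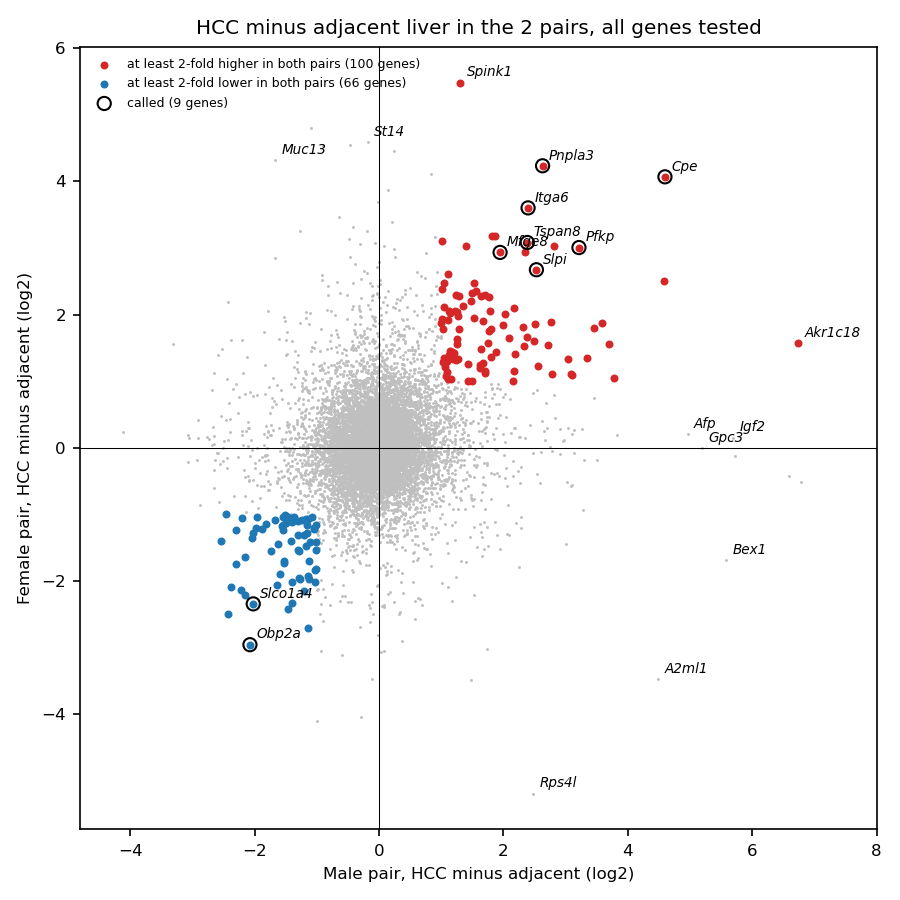
Difference of each of the 11032 genes in the male pair (horizontal, log2) and the female pair (vertical, log2), with grey points for all genes, red and blue for the 100 and 66 genes at least 2-fold higher or lower in both, and black rings for the 9 called genes. The cloud has almost no tilt, with an r of 0.12, and genes such as Igf2 and Afp lie far out along the male axis alone.

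Among the genes that were at least 2-fold higher in both pairs, several differed by more than some called genes without passing. Akr1c18, a progesterone-metabolising hydroxysteroid dehydrogenase, had signals of 5579.8 against 35.7 in the male pair and 406 against 125 in the female pair, a difference of 4.16 (adjusted p = 0.189). Spink1, a secreted trypsin inhibitor, was the reverse in its sizes, at 789.9 against 309 in the male pair and 4508 against 84.4 in the female pair, a difference of 3.39 (adjusted p = 0.189). The first was far larger in the male pair and the second in the female pair, while Cdkn2b was high in both tumours. Cdkn2b, which encodes the CDK4 and CDK6 inhibitor p15, had signals of 729 against 14.2 in the male pair and 619 against 95.6 in the female pair, a difference of 3.54 (adjusted p = 0.064). Its male adjacent signal was under the added constant, which limits that difference. Cfap126, a gene of motile cilia, differed by 2.92. Elapor1, a transmembrane protein of endosomes and lysosomes, differed by 2.63, and Gdpd1, a lysophospholipase of the glycerophosphodiesterase family, by 2.63. All of these were higher in both tumours than in both adjacent livers.

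Among the genes at least 2-fold lower in both pairs, the largest lower values beside the called genes were mostly of weakly expressed genes. Lrtm2 had signals of 12.8 against 143 in the male pair and 89.6 against 582 in the female pair, a difference of -2.46. Scnn1a, a subunit of the epithelial sodium channel, had 23.5 against 193 in the male pair and 94.9 against 457 in the female pair, a difference of -2.23. Mmd2 (-2.19), the solute carrier Slc22a15 (-1.97), the NUMB relative Numbl (-1.90), the giant muscle protein gene Neb (-1.85) and the tubulin polyglutamylase Ttll11 (-1.73) likewise had tumour signals of at most 111.9. Lmnb1, which encodes lamin B1 of the nuclear envelope, differed by -1.77 at signals of 39.6 against 262 in the male pair and 72.4 against 192 in the female pair. Atoh8, a basic helix-loop-helix factor of liver, had 42.6 against 277 in the male pair and 171 against 610 in the female pair, a difference of -2.02. None of these passed, and the tumours were below both adjacent livers for each.

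Most fat-making and fat-storing genes had a positive mean difference, with the larger median in the female pair. Of 37 such genes tested, Pnpla3 rose, 33 had a positive difference (of all genes, 49.1% did), and 12 were higher and 0 lower at an unadjusted p below 0.05. Their median difference was 0.55 (0.24 in the male and 1.05 in the female pair), where the median of all genes tested was -0.01. At least 2-fold higher in both pairs were 6 members: Pnpla3, Pnpla5, Scd2, Fabp5, Thrsp and Gpam. The upstream sequences of Pnpla3 and Pnpla5, which neighbour each other on chromosome 15, and of Thrsp and Angptl8 are shown because their differences ran together in both pairs. They come from the RefSeq promoter table on build GRCm38.p6, as 200 bases from 250 to 51 bases before the annotated start, 5′ to 3′ on the gene's strand. Capitals mark CCAAT, read as ATTGG on this strand, and the E-box CACGTG.

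Pnpla3, chr15:84167566-84167765, + strand: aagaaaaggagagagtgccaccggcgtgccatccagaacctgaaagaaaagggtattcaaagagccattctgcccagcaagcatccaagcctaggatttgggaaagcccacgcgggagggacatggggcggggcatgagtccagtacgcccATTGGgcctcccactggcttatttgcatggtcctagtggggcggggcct
Pnpla5, chr15:84123226-84123425, - strand: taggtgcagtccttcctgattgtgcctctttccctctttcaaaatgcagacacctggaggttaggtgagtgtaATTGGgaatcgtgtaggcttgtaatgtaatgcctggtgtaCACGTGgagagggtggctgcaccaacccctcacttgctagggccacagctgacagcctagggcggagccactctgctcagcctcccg
Thrsp, chr7:97417601-97417800, - strand: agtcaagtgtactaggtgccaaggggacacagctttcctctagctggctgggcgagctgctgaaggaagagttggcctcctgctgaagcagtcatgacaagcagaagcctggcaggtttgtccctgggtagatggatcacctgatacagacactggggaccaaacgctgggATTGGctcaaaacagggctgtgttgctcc
Angptl8, chr9:21835260-21835459, + strand: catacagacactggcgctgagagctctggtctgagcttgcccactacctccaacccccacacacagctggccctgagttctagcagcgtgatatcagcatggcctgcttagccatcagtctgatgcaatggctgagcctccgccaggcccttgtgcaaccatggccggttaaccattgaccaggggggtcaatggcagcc

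Both strands of these windows were searched for the E-box CACGTG, for the CCAAT box, for the TATA box TATAAA, and for the sterol regulatory element TCACNCCAC. CCAAT was present in Pnpla3, Pnpla5 and Thrsp, starting 99, 177 and 79 bases before the start, and in 28.4% of the same window of 32851 RefSeq promoters. CACGTG was present in Pnpla5, 137 bases before the start, and in 4.34% of all windows. TATAAA (9.14% of all windows) and TCACNCCAC (0.81%) were in none of the 4 windows, and that of Angptl8 held none of the motifs. The windows end 51 bases before the start, so a TATA box nearer to the start was not searched for. None of the motifs overlap here, and such matches are descriptions of letters only.

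Pnpla5, a relative of Pnpla3, had signals of 502 against 85.6 in the male pair and 729 against 80.7 in the female pair, with both tumours above both adjacent livers. Its difference was 2.64 ± 0.38 (SE, n = 2 pairs), with an adjusted p = 0.0582 in limma, short of the threshold. Thrsp, a regulator of lipogenesis, had 2529 against 802 in the male pair and 23269 against 8337 in the female pair, a difference of 1.56 with near-equal sizes in the pairs. Gpam, the mitochondrial acyltransferase that starts triglyceride synthesis, had 15310.5 against 6983 in the male pair and 31114 against 11875 in the female pair, a difference of 1.26. Angptl8, an insulin-responsive inhibitor of lipoprotein lipase, was outside the list and was chosen after its values were seen, as one of the genes nearest to the threshold. It had signals of 3811 against 755 in the male pair and 2113 against 589 in the female pair, a difference of 2.06 (adjusted p = 0.0519). In each of these 4 genes both tumours exceeded their own adjacent livers.

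The enzymes of fatty acid synthesis itself were higher in the female pair than in the male pair. Fasn, fatty acid synthase, had signals of 11941 against 7389 in the male pair and 29874 against 6742 in the female pair, which are differences of 0.69 and 2.14. Acly, which makes cytosolic acetyl-CoA, differed by 0.61 and 1.60 in that order. The acetyl-CoA carboxylases did likewise, with Acaca (0.24 and 1.54) and Acacb (0.33 and 2.21), male pair first. Elovl6, an elongase, was at -0.24 and 1.75, opposite in sign. Srebf1, the transcription factor that drives these enzymes, was nearly alike in the pairs, at 0.77 and 0.71. The list's medians differed between pairs in the same order, and that difference has no test with 1 pair per sex.

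Scd2 and Fabp5 were high in both tumours, and Fabp4 and Cidea in the female tumour. Scd2, the stearoyl-CoA desaturase of fetal and fatty tissue, had signals of 12028 against 857 in the male pair and 8961 against 4329 in the female pair, and Fabp5, an epidermal-type fatty acid binding protein, of 28958 against 3370.3 in the male pair and 32503 against 15154 in the female pair. Both were higher in each tumour than in its own liver, with the larger step in the male pair. Fabp4, the adipocyte fatty acid binding protein, had 4914 against 4152 in the male pair and 27809 against 1254 in the female pair, and Cidea, a lipid droplet fusion protein, 377 against 823 in the male pair and 10350.4 against 356 in the female pair. These were high in the female tumour alone, and Cidea was lower in the male tumour than in its adjacent liver.

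**Figure D3:**
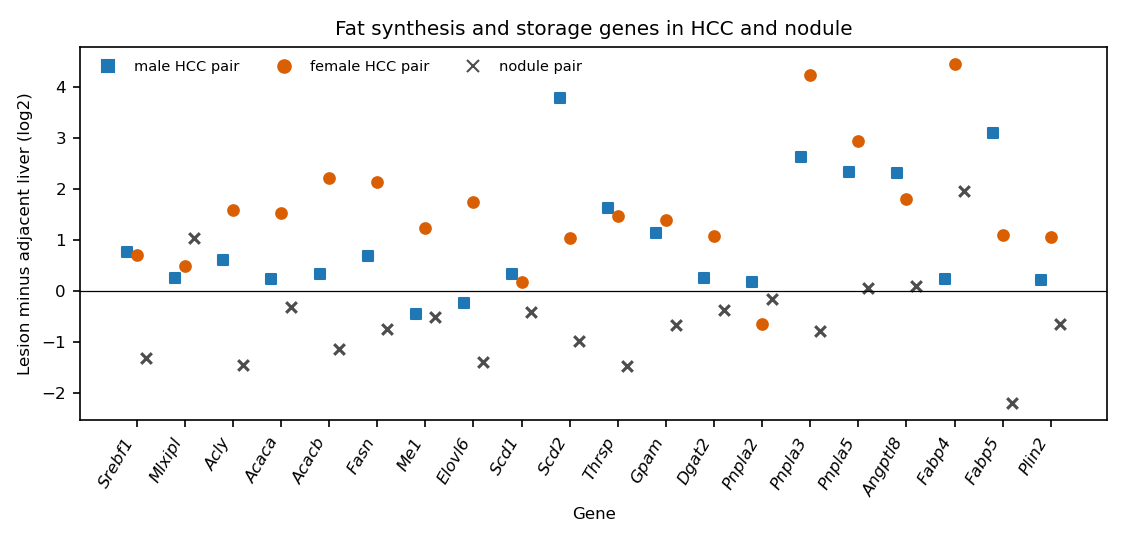
Lesion minus adjacent liver (log2) for 20 fat synthesis and storage genes in the male HCC pair (squares), the female HCC pair (circles) and the nodule pair (crosses). Pnpla3, Pnpla5, Angptl8, Thrsp and Gpam were above 1 in both HCC pairs, while crosses lie mostly below 0, with a median of -0.65 in the nodule over all 37 list members.

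Fatty acid oxidation genes had a median of -0.18 over 22 genes, with 0 higher and 3 lower at an unadjusted p below 0.05. Cyp4a14, a fatty acid omega-hydroxylase under PPAR-alpha, differed by -1.72 at signals of 460.2 against 906 in the male pair and 2704 against 15265 in the female pair, and Ehhadh, of peroxisomal oxidation, by -0.82. Both were lower in each tumour than in its own liver. Cholesterol synthesis genes showed no common direction, with a median of 0.08 over 18 genes (0.48 in the male and -0.30 in the female pair). Srebf2, the factor that drives that pathway, was lower in both tumours (-0.99), while Dhcr7, its last enzyme, was higher (0.85). Of the cholesterol genes 1 were higher and 1 lower at an unadjusted p below 0.05, and no gene of either list was called by limma.

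Psat1, Phgdh and Aldh18a1, which make serine and proline, were higher in both tumours without passing. Psat1, the transaminase of serine synthesis, had signals of 1694 against 126 in the male pair and 150.2 against 28.9 in the female pair, a difference of 2.73 (adjusted p = 0.124). Phgdh, the first enzyme of that route, differed by 2.10 at 830.5 against 83.1 in the male pair and 266 against 115 in the female pair, and Psph, the last, by 2.65 in the male and 0.25 in the female pair. The male tumour had the higher level of all 3 and the larger step. They belong to a list of 30 amino acid stress and unfolded protein response genes, of which 4 were higher and 0 lower at an unadjusted p below 0.05. Its median was 0.23 (0.46 in the male and 0.01 in the female pair), and Asns, asparagine synthetase, was at 0.85 and -1.37, opposite in the pairs.

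Aldh18a1, which makes the precursor of proline from glutamate, had signals of 1135 against 299 in the male pair and 1452 against 145 in the female pair, a difference of 2.53 (adjusted p = 0.0582). Oat, ornithine aminotransferase, which feeds the same precursor from ornithine, was lower, at 4323 against 11474 in the male pair and 4759.6 against 23974 in the female pair, a difference of -1.87. Prodh, the enzyme that degrades proline, differed by -1.42 at 964 against 2397 in the male pair and 3287 against 9541 in the female pair, and was picked after its values were seen. For Aldh18a1 the tumours were above both livers, and for Oat below both. None of these genes passed.

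Pfkp was the called member of 21 glycolysis genes tested, whose median was 0.18, with 4 higher and 0 lower at an unadjusted p below 0.05. Pkm, the pyruvate kinase of most tissues other than liver, had signals of 2051 against 1133 in the male pair and 1517 against 439 in the female pair, a difference of 1.30. Aldoa, the muscle-type aldolase, differed by 0.69. Pklr, the liver pyruvate kinase, was high in the female tumour alone, at 629 against 661 in the male pair and 8104 against 948 in the female pair. Pkm was thus higher in each tumour and Pklr in the female tumour alone. The glucose transporter Slc2a1 (0.20 and 0.16) and Hk2 (-0.25 and 1.61) did not differ the same way by 2-fold.

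Gluconeogenesis and glycogen genes had a median of -0.25 over 22 genes, with 0 higher and 5 lower at an unadjusted p below 0.05. G6pc, which releases free glucose, had signals of 2984 against 5703 in the male pair and 1836 against 4952 in the female pair, a difference of -1.18, and Ppp1r3c, which targets phosphatase to glycogen, differed by -1.32. Both were lower in each tumour than in its own liver. Pck1, the cytosolic PEP carboxykinase, was at -0.17 in the male and -1.76 in the female pair, and the glutamate-oxaloacetate transaminase Got1 at -0.60 and -3.11.

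Fetal liver and liver tumour markers made the list with the highest median. Like the others, this list was chosen with earlier results of these data known, so its rank and its calls are descriptions only. Of 32 tested, Cpe, Tspan8 and Slpi rose, and 18 were higher and 2 lower at an unadjusted p below 0.05. The median was 1.20 (1.21 in the male and 0.79 in the female pair), and 9 members were at least 2-fold higher in both pairs. Golm1, a Golgi protein measured in HCC blood tests, had signals of 3625 against 1148 in the male pair and 3164 against 638 in the female pair, a difference of 1.96. Cd24a, a surface glycoprotein of progenitor cells, had 8686 against 2536 in the male pair and 2471 against 501 in the female pair, a difference of 2.02 (adjusted p = 0.0519), and Ly6d differed by 1.92 (adjusted p = 0.0519). In Golm1 and Cd24a the tumours were higher than their own livers in both mice, with the larger step in the female. Sox4, a transcription factor of fetal tissues, differed by 1.46.

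The oncofetal genes proper were a matter of the male tumour. Afp, the fetal serum protein alpha-fetoprotein, had signals of 13519 against 417 in the male pair and 1204 against 1041 in the female pair. Igf2, the imprinted fetal growth factor, had 2464 against 31 in the male pair and 239 against 213 in the female pair, and Gpc3, the surface proteoglycan glypican 3, 2675 against 57 in the male pair and 234 against 235 in the female pair. The male tumour alone was high in all 3, and the female pair differed by 0.21, 0.15 and -0.01. Bex1 had 3044 against 47.2 in the male pair and 260.1 against 873 in the female pair, opposite in the pairs, and Prom1, a progenitor surface protein, was at 3.45 in the male and 0.75 in the female pair. Igfbp3 and Igfbp5, which bind insulin-like growth factors, were also apart in the male pair alone, at 3.50 and 3.30 against -0.19 and -0.18 in the female pair.

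The female tumour had a set of its own. St14, the membrane protease matriptase, had signals of 317 against 362 in the male pair and 1925 against 63.9 in the female pair, and its inhibitor Spint1 173 against 248 in the male pair and 642 against 58.4 in the female pair. Wfdc2, a secreted protein of the whey acidic protein family like Slpi, had 779.8 against 706 in the male pair and 8494 against 564 in the female pair. These were high in the female tumour alone, with male differences of -0.18, -0.48 and 0.14. Ddr1, a collagen receptor kinase (0.00 and 2.79), and Serpina12, the serpin vaspin (-0.47 and 4.55), did likewise, male pair first. With 1 tumour per sex, no difference between the tumours has a test.

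Cell division genes had a positive median difference in both pairs, the larger in the male. None of the 31 tested was called by limma, 11 were higher and 1 lower at an unadjusted p below 0.05, and the median was 0.55 (0.83 in the male and 0.29 in the female pair), or 0.12 among the genes left by a filter at the 75th percentile. Mki67, the proliferation antigen, had signals of 938 against 320.3 in the male pair and 610.5 against 108 in the female pair, a difference of 1.92. Cdc20, an activator of mitotic exit, differed by 1.44, the mitotic kinases Plk1 by 1.70 and Aurka by 1.41, the ribonucleotide reductase subunit Rrm2 by 1.20 and cyclin Ccne1 by 1.42. Ccna2 and Ube2c were apart in the male pair (2.27 and 2.25) and nearly level in the female pair (0.16 and 0.16). Tk1, thymidine kinase, ran against the list at -0.43 and -1.83. Among 21 p53 targets and CDK inhibitors the median was 0.06, with 2 higher and 1 lower at an unadjusted p below 0.05, and its sign changed with the scaling of the arrays. Besides Cdkn2b, Cdkn1a, the CDK inhibitor p21, differed by 0.73, and Gadd45g, a stress gene of growth arrest, by -1.07.

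Lists of cell contact, cell surface and protease genes, chosen with earlier results of these data known, held 4 of the called genes. That count is a description only, and of all genes tested 0.0816% were called. Of 30 integrin, laminin and adhesion genes, Itga6 and Mfge8 rose, with 7 higher and 3 lower at an unadjusted p below 0.05 and a median of 0.32. Itga3, another laminin-binding integrin chain, had signals of 2287 against 495 in the male pair and 954 against 418 in the female pair, a difference of 1.67, and Cdh1, E-cadherin, 7138 against 3280.5 in the male pair and 9274 against 2229 in the female pair, a difference of 1.58. Both were higher in each tumour. The tight junction gene Ocln (-1.25 and -0.78), Cldn2 (-1.13 and -0.52) and the gap junction gene Gjb1 (-1.18 and -0.41) were the 3 members lower at that level, male pair first. Of 19 tetraspanins, Tspan8 rose, with 6 higher and 0 lower at an unadjusted p below 0.05 and a median of 0.51, which was 0.28 to 0.32 under 6 alternatives of the constant, scaling, filter and probe set rule. Tspan13 differed by 1.84, Cd9 by 1.27 and Cd81 by 0.70, each higher in both tumours.

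Slpi was the called member of 28 proteases and protease inhibitors, with 8 higher and 1 lower at an unadjusted p below 0.05 and a median of 0.32. Timp1, a metalloprotease inhibitor, differed by 1.58 at signals of 790 against 376 in the male pair and 238 against 42.1 in the female pair, and Mmp14, a membrane-bound metalloprotease, by 1.08. Cpe was alone among 12 prohormone processing genes tested: the other members differed by less than 1 log2 unit on average, and the list's median was 0.32. The convertases Pcsk6 (0.36 and 0.48), Pcsk5 (0.34 and 0.26) and Furin (0.48 and -0.07) stayed within 1 log2 unit in each pair, male first. The convertases Pcsk1 and Pcsk2 were not among the 12 list members tested.

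Matrix and cytoskeleton genes were higher, mainly in the female tumour. The 29 extracellular matrix genes had a median of 0.62 (0.21 in the male and 1.01 in the female pair), with 9 higher and 0 lower at an unadjusted p below 0.05 and none called by limma. Sparc, a matrix-binding glycoprotein, was higher in both tumours, at 9843 against 3089 in the male pair and 5411 against 1428 in the female pair, a difference of 1.79. Acta2, smooth muscle actin of activated stellate cells, differed by 1.32, and the fibrillar collagens Col1a1 and Col3a1 by 2.52 and 2.09 in the female pair against 0.01 and 0.25 in the male pair. Of 27 keratin, tubulin, annexin and actin-binding genes 10 were higher and 0 lower at that level (median 0.58, none called by limma). Tubb6, a beta-tubulin, differed by 1.41, and Tpm2, a tropomyosin, by 0.83. Annexins Anxa2 and Anxa3 were at 2.36 and 2.30 in the female pair and 0.42 and 0.42 in the male pair.

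Drug metabolism genes of the mature hepatocyte were mostly lower in both tumours. Of 23 drug metabolism genes under the receptors CAR, PXR and AhR, none was called by limma, 0 were higher and 12 lower at an unadjusted p below 0.05, and 21 had a negative difference. Their median was -0.79 and nearly alike in the pairs (-0.63 in the male and -0.67 in the female pair). Cyp2c37 had signals of 3994 against 9625 in the male pair and 2026 against 7987 in the female pair, a difference of -1.62, and Cyp1a2 647 against 1302 in the male pair and 4647 against 20499.8 in the female pair, a difference of -1.56. Cyp2c54 differed by -1.52, Cyp2b10 by -1.25 and Cyp2e1 by -1.05. Gsta2, a glutathione transferase, differed by -1.93 at 539 against 1215 in the male pair and 2263 against 14823 in the female pair, overlapping between the mice. All were lower in each tumour than in its own liver, and probe sets of Cyp2 and Gsta genes may take up signal from near-identical relatives.

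Bile acid genes included the called transporter Slco1a4. Of 25 tested, 3 were higher and 7 lower at an unadjusted p below 0.05, with a median of -0.57 (-0.30 in the male and -0.63 in the female pair). Cyp7b1, the oxysterol 7-alpha-hydroxylase of the alternative pathway, had signals of 3351 against 9309 in the male pair and 782 against 4244 in the female pair, a difference of -1.94 (adjusted p = 0.0755). Cyp7a1, the rate-limiting enzyme of the classic pathway, differed by -1.04, Cyp27a1, the mitochondrial sterol 27-hydroxylase, by -0.99, and Slco1b2, a further hepatic uptake carrier, by -1.21. Each of these 4 was lower in both tumours than in their own livers, while other members ran against them. The 3 higher members were Cyp39a1, another oxysterol hydroxylase (2.69 and 0.30, male first), the nuclear receptor Nr0b2 (1.15 and 0.32) and Slc51b, a subunit of the basolateral bile acid exporter (0.78 and 1.03). The uptake carrier Slc10a1 was opposite in the pairs (0.20 and -1.77).

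Zonated genes include those of cells near the central vein and those of cells near the portal vein. Of 21 pericentral beta-catenin targets, 0 were higher and 8 lower at an unadjusted p below 0.05, with a median of -0.53, or -0.25 where a gene's probe sets were averaged. Glul, glutamine synthetase of the cells next to the central vein, had signals of 4151 against 14877 in the male pair and 19717 against 22726 in the female pair, lower in the male tumour and nearly level in the female pair. The glutamate transporter Slc1a2 differed by -1.42 and the factor Tbx3 by -0.69. Of 18 periportal and urea cycle genes, 0 were higher and 8 lower at that level, with medians of -0.09 in the male and -1.11 in the female pair. Ass1, which makes argininosuccinate, had 590.1 against 897 in the male pair and 308 against 1501 in the female pair, a difference of -1.41, and Otc, ornithine transcarbamylase, differed by -1.12 and Asl by -1.17. Hal, histidase, was at 0.08 in the male and -3.05 in the female pair. Ass1, Otc and Asl were lower in both tumours, with the larger step in the female. The other urea cycle enzymes were level or higher in the male tumour and lower in the female tumour: Cps1, the entry enzyme (-0.01 and -1.01, male first), the arginase Arg1 (0.08 and -0.83) and Nags, which makes the activator of Cps1 (0.57 and -0.60). In the male pair 8 of the 18 members had a positive difference and in the female pair 1, and no gene of either list was called by limma.

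Several enzymes of the methionine cycle around Gnmt were lower in both tumours. Of 26 methionine and one-carbon genes none was called by limma, 0 were higher and 8 lower at an unadjusted p below 0.05, and the median was -0.36 (-0.24 in the male and -0.40 in the female pair). Mat1a, the liver synthetase of S-adenosylmethionine, had signals of 12277 against 36118 in the male pair and 16833 against 38164 in the female pair, a difference of -1.37. Cbs and Cth, the enzymes of transsulfuration, differed by -1.05 and -1.64. The methyltransferases Nnmt and Pemt, which use S-adenosylmethionine to methylate nicotinamide and phosphatidylethanolamine, differed by -1.99 and -0.87. In all 5 genes each tumour was below its own liver. Of 8 DNA methylation genes 0 were higher and 0 lower at that level, with a median of -0.14, and Dnmt1 was at 0.16 and 0.82.

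Sex-dependent genes are set apart by sex in normal mouse liver. Of 18 male-biased genes Obp2a fell, 0 were higher and 6 lower at an unadjusted p below 0.05, and the median was -0.45 (-0.63 in the male and -0.36 in the female pair). Not every member was higher in the male adjacent liver. Ces1c, among the 6, was at 3987 there and 37299 in the female adjacent liver, while Obp2a was at 6535 and 325. Of 16 female-biased genes 0 were higher and 1 lower, with a median of -0.15. Cyp7b1 and Obp2a, both male-biased, were lower in the tumour of either sex. Igf1, the growth factor that growth hormone induces in liver, differed by -0.95 at signals of 14299 against 24918 in the male pair and 10500.4 against 22481 in the female pair, and Socs2, another growth hormone target, by -0.66. Serpina6, the corticosteroid-binding globulin, differed by -1.42 and ran the same way in both mice.

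Lists of secreted proteins and liver transcription factors had medians near 0, with members on either side. The 24 hepatocyte secreted proteins had a median of 0.02 (0 higher and 3 lower at an unadjusted p below 0.05), with Alb at 0.17 and 0.10 in the pairs. Alb signals were 96840 against 86279 in the male pair and 69644 against 64875 in the female pair. The highest signal of the table was 122580.5, for Apoa1 in the male tumour, and a limit on differences at such high signals was not tested. The 22 transcription factors had a median of 0.08 (2 higher and 2 lower at that level), with Hnf4a at 0.25 and -0.02. Atoh8 (-2.02) and Sox4 (1.46), given above, are in that list. Acute phase (-0.01), complement (-0.02) and coagulation (-0.02) lists had medians near 0, with 1 higher and 1 lower, 0 and 0, and 0 and 1 at an unadjusted p below 0.05, and none called by limma. Klkb1, plasma prekallikrein, was lower in both tumours (-0.95), and Saa4, a constitutive serum amyloid A, was higher (0.84).

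Iron genes included the hepcidin genes and their inducer. Hamp2, a copy of the hepcidin gene, had signals of 3818 against 11502 in the male pair and 2405 against 8949 in the female pair, a difference of -1.74 (adjusted p = 0.064), and Hamp, hepcidin itself, was at -0.28 and -1.12; the copies are alike in sequence and may share signal. Bmp6, the endothelial ligand known to induce hepcidin, had 158 against 74.7 in the male pair and 706 against 129.8 in the female pair, a difference of 1.62, and Smad7, an inhibitor of that pathway, differed by -1.04. Hepcidin genes were thus lower and Bmp6 higher in each tumour, within 18 iron and haem genes whose median was -0.06 (1 higher and 3 lower at an unadjusted p below 0.05).

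Signalling and immune lists had no common direction. The 31 inhibitors of RAS, JAK-STAT and PI3K signalling had a median of 0.12 (3 higher and 1 lower at an unadjusted p below 0.05), with the phosphatase gene Dusp1 at 0.94 and Spred1, an inhibitor of RAS signalling, at 0.75, or -0.029 as the mean of its probe sets. Growth factors and receptor kinases (37 genes) had a median of 0.03 (5 higher and 2 lower), and Hippo, Notch and Hedgehog genes (22) one of 0.14 (3 higher and 1 lower), with Ccn2, a target of the Hippo pathway, at 0.71. Interferon genes had medians of -0.09 in the male and 0.55 in the female pair (4 higher and 0 lower), with Oas2 (1.21) and the immunoproteasome gene Psmb8 (0.86) higher in both tumours. MHC genes had medians of -0.05 in the male and 0.47 in the female pair (0 higher and 0 lower), and chemokines and cytokines of -0.30 in the male and 0.33 in the female pair (1 higher and 1 lower), with Cxcl12 at -1.01. Hypoxia genes had a median of 0.23 with 0 higher and 0 lower at that level. The clock genes Dbp (-1.50) and Nr1d1 (-1.17) were lower in both tumours, in a list of 16 whose median was -0.20 (0 higher and 3 lower). That median was -0.05 with probe sets averaged and -0.09 without the filter. Dbp was at 42.2 against 214 in the male pair and 2390 against 4939 in the female pair. Nr1d1 was at 21.5 against 58.1, near the constant, in the male pair and 545 against 1437 in the female pair. No gene of these 8 lists was called by limma. The medians over both pairs of the growth factor, complement, hepatocyte secreted and macrophage lists changed sign with the scaling of the arrays, and those of the chemokine and neutrophil lists with the constant or the filter on low genes. Those of the DNA methylation, iron and haem, and female-biased lists did so with the filter at the 75th percentile. With probe sets averaged, the DNA methylation, iron and haem, coagulation, hepatocyte transcription factor, stellate, neutrophil and B cell medians also changed sign.

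**Figure D4:**
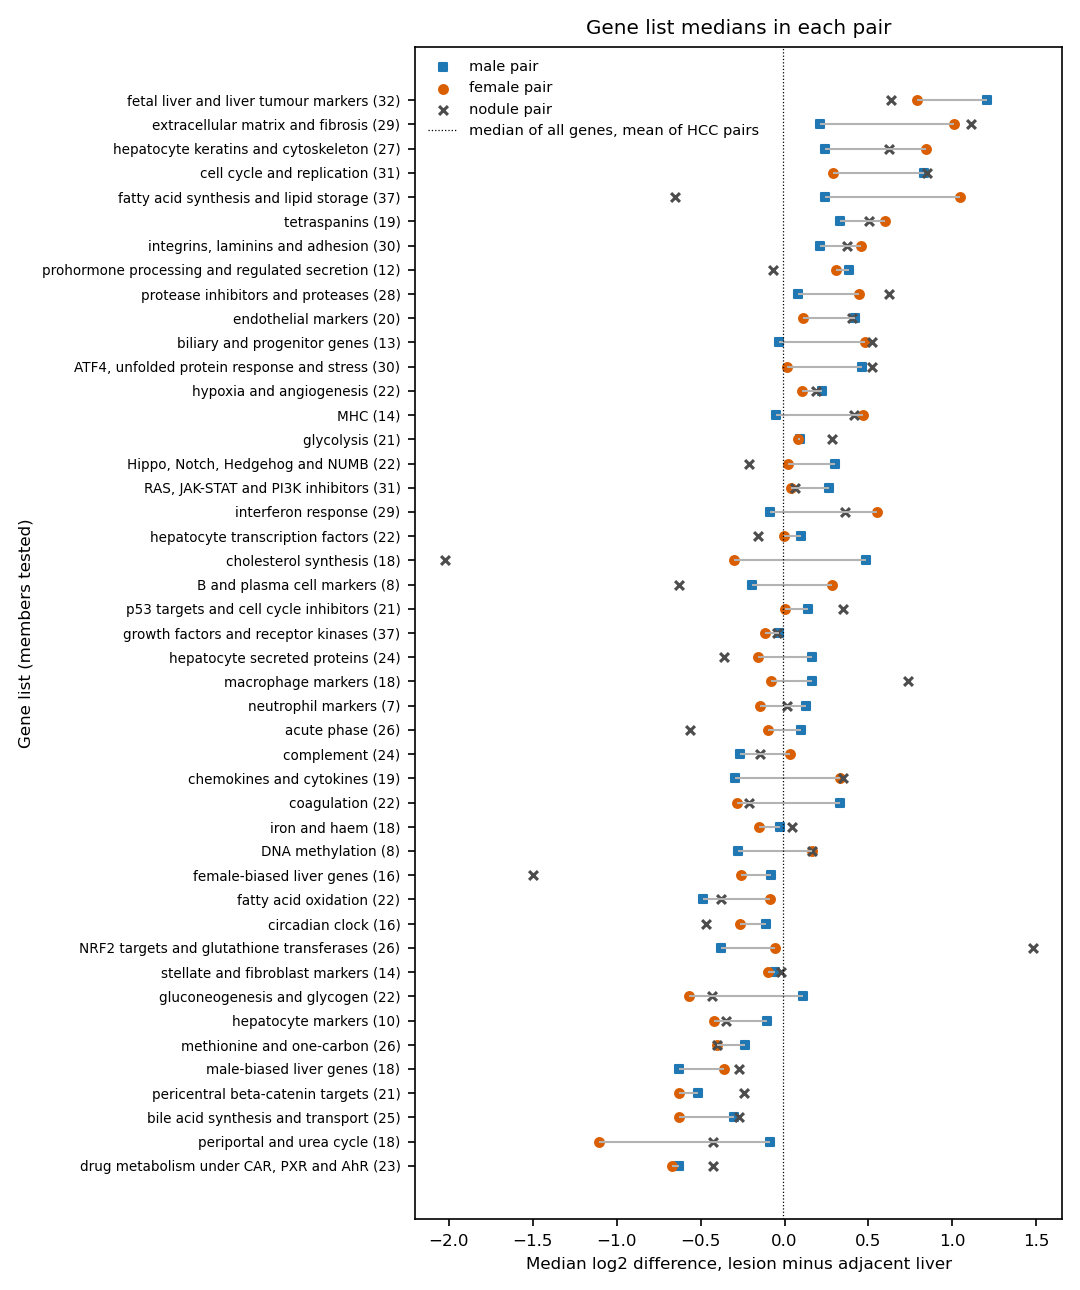
Median difference (log2) of each gene list with at least 5 members tested, in the male HCC pair (squares), the female HCC pair (circles) and the nodule pair (crosses), ordered by the median of the mean differences, with the number of members in brackets and a dotted line at the median of all genes. Fetal and tumour markers lie at the upper right and drug metabolism at the lower left, and the nodule stands apart for cholesterol synthesis, at -2.03, and NRF2 targets, at 1.48.

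Markers of other cell types bear on the lists above as values. Endothelial markers (21 on the array) summed to 28198 in the male tumour against 20955 in its liver, and to 13405 against 12189 in the female pair, with a median of 0.25 and 19 of 20 tested genes positive. Lyve1, a receptor of sinusoidal and lymphatic endothelium, differed by 1.08. Stellate and fibroblast markers (15) summed to 35511 against 36128 and to 25878 against 27136, and the matrix genes above were higher mainly in the female. Macrophage markers (22) summed to 73847 against 73675 and to 43777 against 42239, with a median of 0.00 (0 higher and 0 lower at an unadjusted p below 0.05). Sums of these 2 lists were nearly level within each mouse, while single members ran either way. In the female pair Col1a1 was at 2.52 and Ecm1 at -1.18 among stellate markers, and Cybb at 2.06 and Marco at -2.37 among macrophage markers. Neutrophil markers (12) summed to 112019 against 103708 and to 44664 against 19007, the latter largely Lcn2, which hepatocytes also make. B and plasma cell markers (9) summed to 5272 against 4942 and to 7411 against 4300. T and NK cell markers (15) summed to 1455 or less on each array, with 3 or 4 of them below 16.8. Erythroid markers (6) and markers of other tissues (11) summed to 1894 or less, with 1 and 2 to 5 of them below 16.8. Biliary and progenitor genes had medians of -0.03 in the male and 0.48 in the female pair, with Krt19, a keratin of bile ducts, at 26.7 against 210.5 in the male pair and 190.3 against 50.4 in the female pair, opposite in the pairs, and Sox9 level (-0.16 and 0.01). The part of these cells in the differences was not tested.

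The 91 genes with at least 2-fold opposite differences were 39 higher in the male and lower in the female tumour, and 52 the other way. A2ml1, an alpha-2-macroglobulin-like protease inhibitor, had signals of 20866 against 914 in the male pair and 422 against 4860.5 in the female pair, and Rps4l, a ribosomal protein S4 copy, 2751 against 481 in the male pair and 13 against 1070 in the female pair. Hsd17b6, a hydroxysteroid dehydrogenase, had 5113 against 1531 in the male pair and 1257 against 10308 in the female pair, and Fst, the activin-binding protein follistatin, 1359.5 against 340.1 in the male pair and 111 against 348 in the female pair. These 4 were higher in the male tumour and lower in the female tumour than in their own livers. Muc13, a transmembrane mucin, had 18.6 against 96 in the male pair and 2436 against 106 in the female pair, Tmprss4, a membrane serine protease, 41.9 against 568 in the male pair and 1101 against 364 in the female pair, and Ifit2, an interferon-induced gene, 37.8 against 277 in the male pair and 916 against 188 in the female pair. The tight junction gene Tjp3 had 540.1 against 1762 in the male pair and 2507 against 333 in the female pair. These ran the other way, with the female tumour above all other arrays in each.

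The nodule was set against the tumours by testing the HCC difference minus the nodule difference over 6 arrays. Cbr3, a carbonyl reductase, had signals of 625 against 868 in the male pair and 613 against 1808 in the female pair, where the nodule had 22685 against 309 in its adjacent liver. The nodule stood far above the other 5 arrays, and the HCC difference minus the nodule difference was -7.12 ± 0.56 (SE, limma adjusted p = 0.00891). Called with it, 0.0363% of genes in all, were Abcc4, an exporter of bile acids and nucleotides, Heph, a copper-dependent ferroxidase, and Slc22a12, a urate carrier, each with an adjusted p = 0.05, just under the threshold. Abcc4 was at 21089 against 456 in the nodule pair and at 406 against 377 in the male pair and 251 against 912 in the female pair. Slc22a12 was at 4205 against 32.7 in the nodule pair, and Heph at 2134 against 4, where the adjacent signal is near 0 and the constant sets the size. In all 4 the nodule was high and the tumours were level with their livers or lower.

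At an unadjusted p below 0.05 the HCC difference was above the nodule's for 208 genes (1.89%) and below it for 344 (3.12%). Among 26 NRF2 targets and glutathione transferases it was above for 0 and below for 18, with medians of -0.21 in HCC and 1.48 in the nodule. Gclc, of glutathione synthesis, was at 33594 against 2214 in the nodule pair, 3504 against 2264 in the male pair and 5843 against 4301 in the female pair, and Nqo1, a quinone reductase, at 5815 against 751 in the nodule pair, 209 against 282 in the male pair and 703 against 940.4 in the female pair. The nodule alone was high for both, and neither passed. Among the fat synthesis and storage genes the HCC difference was above for 17 and below for 2, and among cholesterol synthesis genes above for 15 and below for 0, none of them called. Pnpla3 was at 81.7 against 153 in the nodule pair, Pfkp at 224 against 152 and Slpi at 972 against 628. Cpe (1639 against 65.4), Tspan8 (406 against 49.6), Mfge8 (6007 against 589) and Itga6 (1527 against 315) were higher in the nodule than in its adjacent liver, and Slco1a4 was lower (1552 against 5571). The nodule is a single array with 1 adjacent array, and 0 of the 4 calls remained without the intensity trend, with all 10 arrays in the fit, or with either HCC pair left out.

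**Figure D5:**
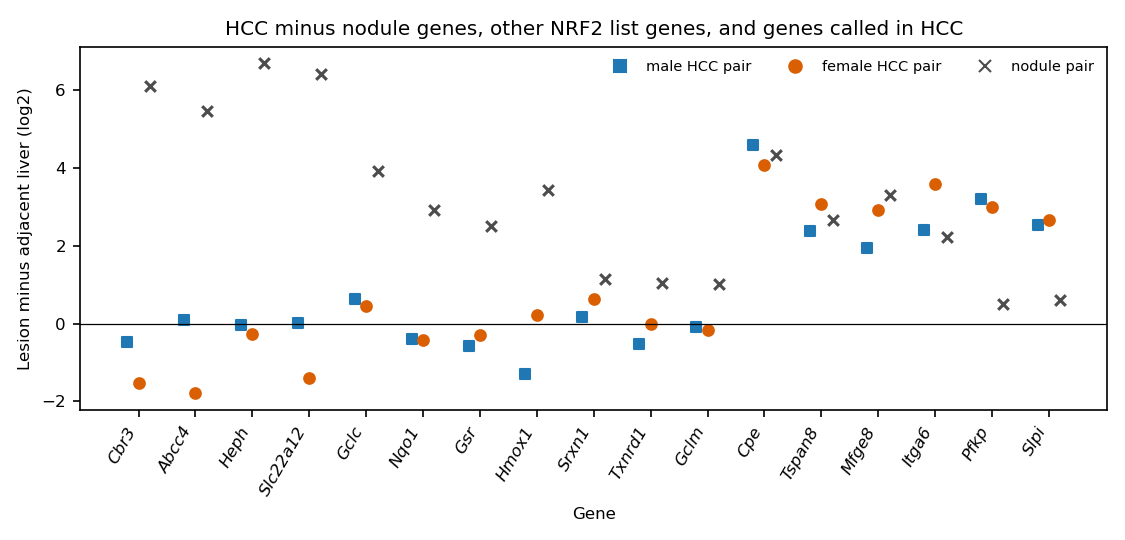
Lesion minus adjacent liver (log2) in the male HCC pair (squares), the female HCC pair (circles) and the nodule pair (crosses) for the 4 genes called between HCC and nodule, 7 NRF2 list genes, and 6 genes called in HCC. The crosses of Cbr3, Abcc4, Heph and Slc22a12 are far above the HCC pairs, while for Cpe, Tspan8, Mfge8 and Itga6 all 3 pairs are higher in the lesion.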

How the data were processed

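RNA from 10 liver samples was measured on Affymetrix arrays, from 5 ug of total RNA each, per the labels' protocols. The deposited values are intensity, 1 signal per probe set on a linear scale, made by the authors with GCOS, per the submitters' processing notes; its version and settings are not given in the sources used here. The 2% trimmed mean of every array was 500.0, so the arrays had been scaled before deposit. The table held 45101 probe sets with signals from 0.1 to 122580.5. Of these, 64 were controls, 34945 had 1 gene, 932 several and 9160 none in the annotation table provided, and 34741 were matched to RefSeq genes.

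The scale used was log2(signal + 16.8), where 16.8 is the 20th percentile over the whole table. A gene was represented by the probe set with the highest mean over the 10 arrays, and 11032 of 18193 genes with a mean above the median signal of 91 were tested. HCC and adjacent liver (2 arrays each) were compared with limma 3.58.1 in R 4.3.3, with the mouse as a block and an intensity trend in the variance prior, leaving 1 residual degree of freedom. Adjusted p-values are Benjamini-Hochberg values over all 11032 genes. The HCC difference minus the nodule difference was fitted the same way over 6 arrays. The scripts were tested on simulated data. Nothing in the labels says more on replication than 1 mouse per array, so p-values rest on 2 mice.

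The pairing comes from matching titles, sex and age. Members, gene lists and rules were chosen with earlier results of these data known. Named genes were Gnmt, every called gene, the 15 largest differences per direction among genes at least 2-fold apart in both pairs, list members with the largest differences first, the 10 largest opposite genes per orientation, and genes called between HCC and nodule. Among the largest lower genes, prediction and clone names were counted and not named. Some list members were named for showing no or opposite differences, and Angptl8 and Prodh were chosen after their values were seen. Lists were described by counts and medians, with no set test. The alternatives varied the constant, scaling, filter, variance model, block, arrays in the fit, probe set rule, and the pair left out.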

Additional observations from a re-analysis of the deposited data

Results flagged for a closer look

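The HCC difference was below that of the dysplasia nodule for 4 genes by a test of the difference itself, over 6 arrays in limma. These were Cbr3 (-7.12, adjusted p = 0.00891), Slc22a12 (-7.12), Heph (-6.86) and Abcc4 (-6.32), the last 3 with an adjusted p = 0.05 each. The values are log2 differences of differences. In both HCC pairs these genes were between -1.79 and 0.10, and in the nodule pair between 5.48 and 6.69. The nodule is 1 array with 1 adjacent array, so its spread in that test is taken from the HCC pairs. The call of Cbr3 was lost in 5 of 14 alternatives, that of Abcc4 in 10 of 14, and those of Heph and Slc22a12 in 10 of the 13 that tested them, and 0 of the 4 were called without the intensity trend or with no replicate block.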

How the results depend on the processing

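The 9 genes called between HCC and adjacent liver (7 higher, 2 lower) and the 4 called between HCC and nodule rest on 2 pairs and 1 residual degree of freedom, and the counts depended on nearly every choice in limma. With the constant halved 7 were called (6 higher, 1 lower) and 1 between HCC and nodule; with it doubled 18 (16 higher, 2 lower) and 5. Quantile normalization gave 3 (all higher, 0 lower) and 1, and centring on the 75th percentile 4 (all higher, 0 lower) and 1. Without the filter 16 were called (14 higher, 2 lower) and 3. With the filter at the 75th percentile, where only 3 of the 9 genes remained, 0 were called in either direction (547 at an unadjusted p below 0.05) and 1 between HCC and nodule. Without the intensity trend there were 0 and 0 (768 and 597 at an unadjusted p below 0.05), and with a robust prior 9 (7 higher, 2 lower) and 1. Every probe set tested by itself gave 25 (21 higher, 4 lower) and 7, and means of a gene's probe sets 6 (4 higher, 2 lower) and 5. With no replicate block, so without the pairing of tumour and liver of 1 mouse, 0 were called in either comparison (228 and 184 at an unadjusted p below 0.05). With all 10 arrays in the fit there were also 0 and 0 (937 and 643). Leaving out 1 pair, in the fit over all other arrays and with the lone pair assumed to vary like the young pools, gave 5 to 9 calls, 3 to 5 higher and 0 to 6 lower, and 0 to 0 between HCC and nodule, with none of the 9 genes among them. The cause of these shifts was not tested. Each of the 9 genes kept its direction wherever it was tested. That direction could not change without the trend, with no block, with all 10 arrays or with 1 pair left out. Over 115 genes and 14 alternatives, 1463 of 1559 values kept direction and side of the threshold, 65 lost the threshold, 30 gained it and 1 turned: Spred1, at 0.75, was -0.029 as a mean over its probe sets. All 65 losses were of the 9 called genes, since only a called gene can lose the threshold. Mfge8 was called again in 4 of 14 alternatives and Slpi in 8 of 14, the lowest and highest counts among the 9. Of 583 list medians under alternatives, 536 moved by less than the spread between the pairs. That count includes the fits without the trend, with no block and with all 10 arrays, where list medians cannot move. Signals near 16.8 limit the size of differences of weak genes, since the deposited values hold no detection calls that were used here.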
